A study of Homo sapiens with 20 samples.

Results

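Untreated LOVO cells carrying a short hairpin RNA against METTL3 (shMETTL3) were compared with untreated LOVO cells carrying a control hairpin (shControl), by the intervals of open chromatin listed for each group. Every interval of the shControl list was called kept if an interval of the shMETTL3 list overlapped it by at least 1 bp and lost if none did, and every shMETTL3 interval without such a partner was called gained. This gave 33922 distinct regions, of which 15902 were kept, 17572 lost and 448 gained, out of 292390 intervals in the 10 lists of the whole series. The word lost therefore means absent from a list and not measured as closed.

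LOVO is an established human colon adenocarcinoma line, and accessibility was assayed by ATAC-seq, in which a transposase cuts open DNA and leaves sequencing adapters there. The labels give 2 samples for untreated shMETTL3 and 4 for untreated shControl, 2 of these marked as a second batch, among 20 samples of LOVO and RKO with or without the drug olaparib. The deposited lists are per group and not per sample, so no value has a replicate error and no test between the groups was possible. The series title concerns demethylation of LINE1 RNA and chromatin accessibility, and the comparison of the hairpins without drug asks how accessible regions differ when the methyltransferase is targeted. The number of hairpins, their sequences, and whether the cells were clones or pools are not given in the sources used here. Untreated shControl has a pair of lists, a merged one of intervals only, which is of the same form as the shMETTL3 list, and a second one whose intervals carry a score and a peak name of replicate 1. Which of them holds the second batch is not given. The spread between lists could be judged only from the second shControl list, in which it is mixed with the difference in form.

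METTL3 is the catalytic subunit of the complex that methylates adenosine in RNA to m6A, working with its partner METTL14. The mark is bound by reader proteins that change the splicing, export, translation and decay of transcripts, and on RNAs that stay at chromatin, LINE1 transcripts among them, it has been tied to the state of the surrounding chromatin. Open chromatin is found mostly at gene starts and at distal enhancers, and an interval in a peak list marks a place where cuts pile up above the local background. In a bulk sample, fewer cells with an open site and fewer cuts at that site in each cell cannot be told apart.

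The sequences of 7 gene starts are shown as examples, from RefSeq on GRCh38.p14 (the assembly that hg38 names). Each runs from 250 bases before to 50 bases after the start on the gene's own strand. Capitals mark matches, on either strand, to 8 short motifs that were searched: the GC box GGGCGG, the CCAAT box bound by NF-Y, the TATA box TATAAA, the ETS motif CCGGAAG, the AP-1 motif TGANTCA, the CRE TGACGTCA, the NRF1 core GCATGCGC and the YY1 motif AAGATGGC. None of these strings contains another, although matches may touch or share bases. The starts of METTL3 (chr14:21511291-21511590, minus strand), of HMGCS1, which makes the precursor of mevalonate (chr5:43313363-43313662, minus strand), and of CDX2, the intestinal homeobox factor (chr13:27969266-27969565, minus strand), were kept with shMETTL3. The starts of TXN, which encodes thioredoxin (chr9:110256458-110256757, minus strand), and of the TGF-beta and BMP signal transducers SMAD3 (chr15:67065352-67065651, plus strand) and SMAD4 (chr18:51029963-51030262, plus strand) were lost. The start of LARP6, an RNA-binding protein gene (chr15:70854108-70854407, minus strand), was absent from both shMETTL3 lists and present in the 3 shControl lists of LOVO. A match is a description of the letters only.
METTL3: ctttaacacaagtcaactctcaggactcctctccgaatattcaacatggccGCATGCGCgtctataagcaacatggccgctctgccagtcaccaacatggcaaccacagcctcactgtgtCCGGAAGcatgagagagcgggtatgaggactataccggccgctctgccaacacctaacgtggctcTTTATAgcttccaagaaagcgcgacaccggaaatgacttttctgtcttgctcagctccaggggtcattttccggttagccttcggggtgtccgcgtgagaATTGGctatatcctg
HMGCS1: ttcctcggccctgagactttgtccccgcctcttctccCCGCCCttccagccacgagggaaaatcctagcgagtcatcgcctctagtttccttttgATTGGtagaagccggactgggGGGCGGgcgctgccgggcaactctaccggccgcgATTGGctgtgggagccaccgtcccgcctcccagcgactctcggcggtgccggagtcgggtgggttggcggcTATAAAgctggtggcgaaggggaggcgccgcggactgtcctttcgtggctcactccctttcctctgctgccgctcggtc
CDX2: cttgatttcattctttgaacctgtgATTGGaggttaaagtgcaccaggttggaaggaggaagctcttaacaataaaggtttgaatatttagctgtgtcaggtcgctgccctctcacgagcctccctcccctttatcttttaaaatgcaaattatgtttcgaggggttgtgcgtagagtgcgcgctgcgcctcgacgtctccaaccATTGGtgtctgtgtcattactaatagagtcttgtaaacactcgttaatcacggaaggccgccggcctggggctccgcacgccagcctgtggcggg
TXN: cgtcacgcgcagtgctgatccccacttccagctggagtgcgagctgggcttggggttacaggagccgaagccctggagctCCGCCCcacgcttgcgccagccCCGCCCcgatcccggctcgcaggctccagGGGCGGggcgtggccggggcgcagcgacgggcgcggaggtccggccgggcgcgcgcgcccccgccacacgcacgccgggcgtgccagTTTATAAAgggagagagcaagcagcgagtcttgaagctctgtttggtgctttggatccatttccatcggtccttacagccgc
SMAD3: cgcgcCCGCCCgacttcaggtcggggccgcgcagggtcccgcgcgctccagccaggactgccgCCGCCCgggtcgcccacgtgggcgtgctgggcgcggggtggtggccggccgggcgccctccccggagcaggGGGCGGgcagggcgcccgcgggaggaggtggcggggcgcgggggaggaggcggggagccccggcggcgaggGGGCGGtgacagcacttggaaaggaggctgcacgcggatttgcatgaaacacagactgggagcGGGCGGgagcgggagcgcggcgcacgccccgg
SMAD4: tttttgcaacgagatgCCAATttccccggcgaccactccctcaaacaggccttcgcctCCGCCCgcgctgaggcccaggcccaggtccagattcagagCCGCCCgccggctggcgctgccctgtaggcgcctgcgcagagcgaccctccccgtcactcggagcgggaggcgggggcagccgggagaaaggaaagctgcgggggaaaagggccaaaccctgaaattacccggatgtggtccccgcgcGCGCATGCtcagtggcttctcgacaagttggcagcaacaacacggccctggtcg
LARP6: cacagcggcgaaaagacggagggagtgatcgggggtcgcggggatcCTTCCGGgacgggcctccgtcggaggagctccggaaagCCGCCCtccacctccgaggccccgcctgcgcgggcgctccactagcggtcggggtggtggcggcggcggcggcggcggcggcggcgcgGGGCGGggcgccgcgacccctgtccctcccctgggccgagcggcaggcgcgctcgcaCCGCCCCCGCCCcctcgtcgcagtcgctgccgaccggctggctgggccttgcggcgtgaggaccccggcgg
The 3 kept starts each hold a CCAAT match, read as ATTGG where it lies on the other strand, and so does the lost start of SMAD4, while TXN, SMAD3 and LARP6 hold none. All 4 lost starts hold GC boxes, and so do the kept start of HMGCS1 and 71.6% of all promoter windows open in shControl. The genes were picked as examples after their values were seen. Their G and C content was 53% at METTL3, 65.7% at HMGCS1, 50.3% at CDX2, 70.0% at TXN, 80.3% at SMAD3, 66.7% at SMAD4 and 80.0% at LARP6. The shares over all promoters are given with the promoter results.

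The shMETTL3 list held 16417 intervals covering 8.52 Mb, against 33474 intervals covering 21.6 Mb in the merged shControl list. Of the shControl intervals 52.5% were lost (17572, 95% exact interval 52.0 to 53), and of the shMETTL3 intervals 2.73% were gained (448, 2.49 to 2.99). Between the merged and the second shControl list, 12.2% of the merged intervals were absent (4096, 11.9 to 12.6), and 38.6% when 50% of an interval had to be covered. The binomial intervals cover counting error only. The loss with shMETTL3 was thus larger at 1 bp than the difference between the full shControl lists, with 1 list behind each value. At 50% the kept share was 37.9%. The second shControl list is the longest of the 3, with 41431 intervals. Cut to its highest-scored 16417, as many as the shMETTL3 list holds, it met 46.9% of the merged intervals. With shMETTL3 47.5% were kept, so at equal list length the loss was no larger. Restricted to the 29378 intervals present in both shControl lists, 46.6% were lost (13686). Lost intervals were also less often in the second shControl list, at 77.9% against 98.7% of kept intervals. Of the 448 gained intervals, 314 (70.1%) were in the second shControl list, so that 134 were in neither untreated shControl list.

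Whether an interval was kept went with its width and with its score. The narrowest of 10 width classes (160 to 268 bp) had 9.08% kept and the widest (1129 to 2737 bp) 74.6%. The same classes had 61.1% and 99.5% of their intervals in the second shControl list. By the score of the overlapping interval in the second shControl list, the kept share was 13.5% in the lowest class (3.22 to 6.54) and 96.5% in the highest (16.6 to 50.7). Intervals with no scored partner were kept in 5.13% of cases (210 of 4096). Width and score each went with the share within classes of the other: among wide intervals the kept share was 37.4% at low, 72.4% at middle and 94.8% at high scores, and among narrow intervals it was 11%, 26.2% and 61.6%. The depth behind either list is unknown, so fewer reads and less accessibility cannot be told apart here.

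**Figure D1:**
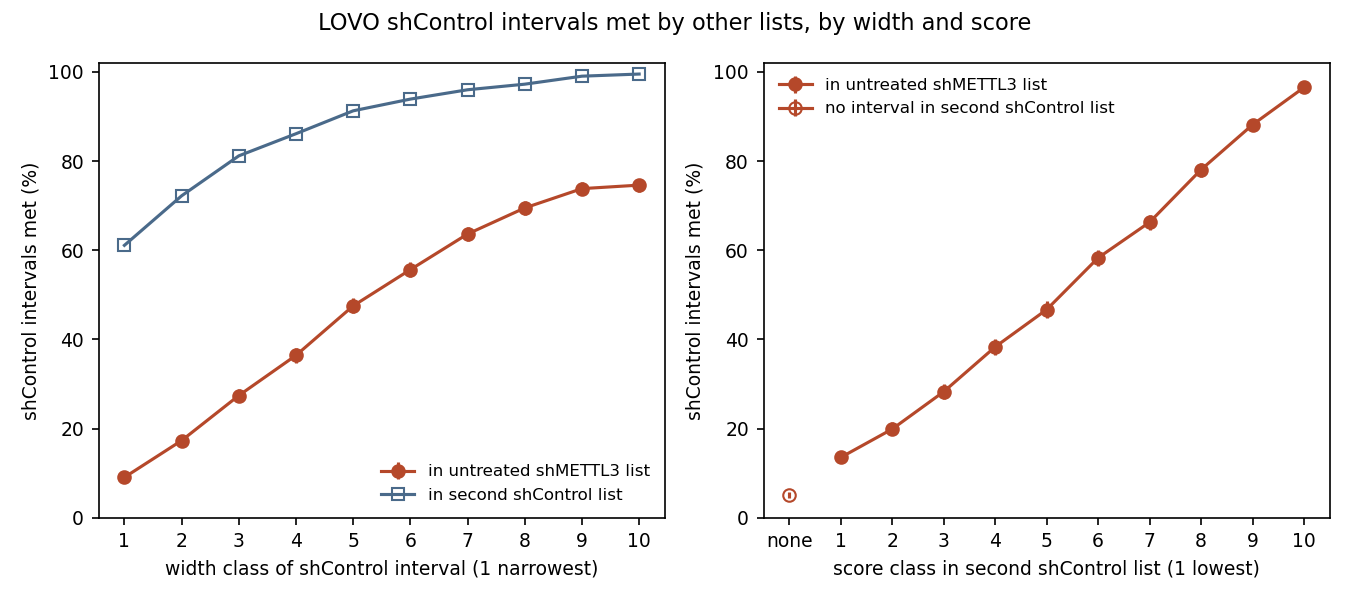
Share of the merged LOVO shControl intervals that were met in other lists (vertical axes, percent), by class of interval width (left) and by class of score in the second shControl list (right); bars are 95% exact intervals, mostly smaller than the points. The share met in the shMETTL3 list climbed from 9.08 to 74.6% over the width classes and from 13.5 to 96.5% over the score classes.

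Kept intervals were narrower with shMETTL3. In 15832 pairs of 1 shMETTL3 interval and 1 shControl interval, the median width was 486 bp with shMETTL3 and 739 bp with shControl. The median ratio was 0.699 (quartiles 0.541 and 0.843), and the shMETTL3 interval was the narrower one in 93.9% of pairs (14873). The median edge lay 86 bp inside the shControl edge on the side of lower coordinates and 87 bp on the other side. Whether single intervals narrowed evenly on both sides was not tested. Only 68 kept intervals (0.428%) were met by 2 or more shMETTL3 intervals, and 287 (1.80%) were wholly covered. Intervals of the second shControl list were narrower than their merged partners too, with a median ratio of 0.632, and that list differs from the merged one in form.

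Gene ends were kept more often than other places. Of shControl intervals within 1000 bp of either end of a protein-coding gene 66.0% were kept (65.0 to 67.0, n = 9159), against 40.8% within gene bodies (n = 11702) and 40.3% between genes (n = 12613). From their width alone, gene ends would have had 64.9% kept, and from their score 56.2%. Intervals that met the start of a gene and not its far end had 69.0% kept (n = 6857), and those that met only the far end 36.2% (31.8 to 40.8, n = 461), beside 47.2% from their width. The share at far ends was thus nearer to that of gene bodies than to that of starts. It lay further below the share from width than in gene bodies, which had 41.4% from theirs. At over 200 kb from any gene end 36.7% were kept (n = 2251). The second shControl list, cut to its highest-scored 16417 intervals (the number in the shMETTL3 list), also met gene ends most often, at 58.5%, against 42.5% of gene bodies and 42.5% of places between genes. That cut was chosen after the data were seen.

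Promoters were then taken from the RefSeq table, with 34943 windows of 300 bases, of which 12441 met a shControl interval. Of these, 33.2% were lost with shMETTL3 (4129), 32.7% for protein-coding genes and 35.2% for long non-coding RNA genes, and 87 windows were gained. Windows of a gene can overlap and share a shControl interval, as at HMGCS1, where not every such window holds a CCAAT box. The exact intervals below treat windows as independent and so are too narrow. Windows with a CCAAT box were lost in 25% of cases (23.8 to 26.3, n = 4673), against 38.1% (37.0 to 39.2, n = 7768) of those without. For the ETS motif the shares were 25% (23.3 to 26.7, n = 2564) with and 35.3% (34.4 to 36.3) without it. Where both were present 18.0% were lost (157 of 874), and where neither was 40.7% (2475 of 6078). METTL3, whose start holds both, is one of the 874. For the GC box the shares were 31.4% with and 37.8% without, and for the TATA box 42.8% with and 32.7% without. With and without each of the other motifs the shares differed less, at 35.0 and 33.1% for AP-1, 30.0 and 33.3% for the CRE, 34.5 and 33.1% for the NRF1 core, and 29.6 and 33.4% for YY1. Over all 34943 windows, open or not, the GC box was in 44.9%, the CCAAT box in 34.6%, the TATA box in 11.6%, the ETS motif in 10.2%, AP-1 in 7.72%, the NRF1 core in 3.02%, YY1 in 2.89% and the CRE in 1.84%.

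**Figure D2:**
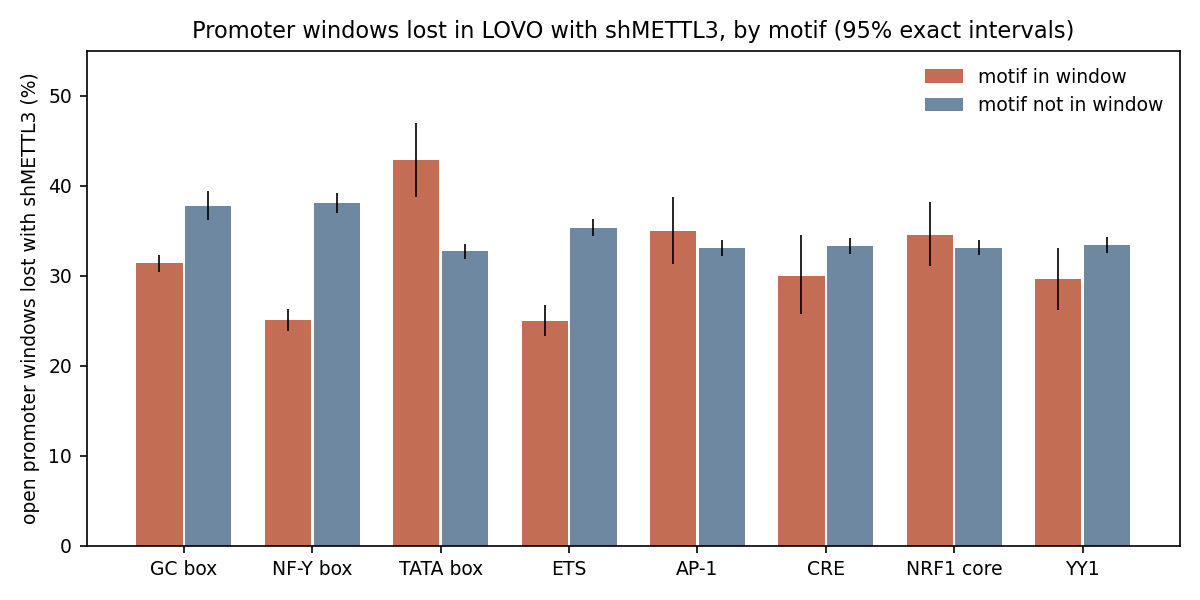
Share of promoter windows open in shControl that were lost in the shMETTL3 list (vertical axis, percent), for windows with and without each motif. Bars are 95% exact intervals that treat windows as independent. The largest gaps were at the CCAAT box bound by NF-Y (25 against 38.1%) and at the ETS motif (25 against 35.3%).

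The gap at the CCAAT box was present within each of 3 equal classes of windows by the width of their shControl interval. It was 35.0% with against 47.4% without the box among narrow intervals, 15.7% against 31.1% in the middle class and 24.2% against 35.9% among wide ones. The highest-scored 16417 intervals of the second shControl list showed a gap in the same direction, with 19.7% of windows that hold both motifs absent and 51.6% of those that hold neither. Loss against G and C content was lowest in the middle: over 5 equal classes, low to high, it was 41.3, 26.8, 26.6, 29.2 and 41.9%. METTL3 and CDX2 lie in the lowest class, HMGCS1 and SMAD4 in the middle one, TXN in the one above it, and SMAD3 and LARP6 in the highest. Absence from the highest-scored part of the second shControl list ran 45.3, 32.3, 33.2, 41.4 and 58.3% over the same classes. The pattern over motifs and base composition is therefore also found in a shControl list cut to its strongest intervals, and its relation to the hairpin was not tested.

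Of 20037 protein-coding genes, 7175 had an interval within 1000 bp of either end with shMETTL3 and 10321 with shControl. Of the shControl genes 31.2% were lost (3225, 30.4 to 32.2), and of the 9716 others 0.813% were gained (79). Between the full shControl lists 3.09% were absent (319), and 39.2% were absent from the second one cut to its highest-scored 16417 intervals. Of the 9716 genes without an interval in merged shControl, 12.2% (1185) had one in the full second shControl list. METTL3 itself kept its interval, which covered 516 bp with shMETTL3 and 758 bp with shControl, 542 bp in the second shControl list and 572 bp in shMETTL3 with olaparib. A hairpin acts on the transcript, and the gene's chromatin does not check the knockdown. Among the 7096 genes kept, the bases covered at gene ends had a median of 637 with shMETTL3 and 981.5 with shControl, and 95.2% of them were covered less with shMETTL3. Of the 3225 lost genes 94.4% had an interval in the list of shMETTL3 with olaparib, 84.7% in shControl with olaparib and 90.9% in the second shControl list. These lists held 51462, 32192 and 41431 intervals, and the shares ran in the order of list length.

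The lost genes with the most shControl bases at their ends had broad intervals that were wholly missing from the shMETTL3 list. PACSIN3, an adaptor of endocytosis, had 0 bases with shMETTL3, against 2385 in the merged and 1140 in the second shControl list. TAPBP, which encodes tapasin and helps load peptides on MHC class I, had 0 against 2268 and 1349. TXN had 0 against 2000 and 1018, and NAA50, an amino-terminal acetyltransferase gene, 0 against 2000 and 720. HCFC1, a transcriptional coregulator gene on the X chromosome, had 0 against 2058 and 651. PAXIP1, a DNA damage response gene, had 0 against 2000 and 631. The others by the same rule were ABHD14B, NEURL4, FBXL15, ACIN1, CDK17, PPIL4, N4BP2, UST and ZNRF1, with 1949 to 2378 shControl bases. All 15 had an interval in the second shControl list (261 to 1411 bases) and in shMETTL3 with olaparib (229 to 1416 bases). The shControl intervals at NAA50 and TXN were among the widest lost ones: chr3:113745210-113747572 spans the starts of NAA50 and ATP6V1A (2363 bp, score 12), and chr9:110255426-110257716 that of TXN (2291 bp, score 9.25). The widest lost interval, chr2:188291578-188294048, lay at an end of GULP1, which is not among these 15 genes (2471 bp, score 10.9).

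Most gained genes were open in another control list. Of the 79 gained genes 70 (88.6%) had an interval in the second shControl list. RNF217 had 896 bases with shMETTL3, against 0 in the merged and 451 in the second shControl list. TNS2, a tensin of focal adhesions, had 848 with shMETTL3, against 0 and 928. CUX1, a homeobox factor gene, had 775, against 0 and 330. DGKH, a diacylglycerol kinase gene, had 721 with shMETTL3, against 0 in both untreated shControl lists and 331 in shControl with olaparib. Others of the first 15 by shMETTL3 bases were TMEM120B, MAOA, MPG, NR2F6, LHFPL2, NR4A3, HCFC1R1, THOC6, MINDY3 and DECR2. HCFC1R1 and THOC6 share 1 interval.

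In the gene groups that follow, lost members are set beside the 31.2% of all genes and beside the members absent from the highest-scored 16417 intervals of the second shControl list, which was 39.2% over all genes. The 31 lists hold 799 distinct genes. Of the 592 with a shControl interval, 178 (30.1%) were lost, against 216 absent from that cut of the second shControl list. With the second shControl list as base, 36.2% of all genes were lost, genes without an interval in merged shControl included. The exact interval lay apart from the share over all genes in 1 of the 31 lists. It did so in 2 with the second list as base and in 0 with windows of 2500 bp. The exact intervals are not corrected for the number of lists. Of the 207 list members without an interval in merged shControl, 6 were gained (2.90%, 1.07 to 6.20, beside 0.813% of all such genes). Among them were the glycosylase gene MPG, the receptor tyrosine kinase gene AXL, the interferon-induced IFIT3, the glycolytic TPI1 and the nuclear receptor NR2F6. All 6 had an interval in the second shControl list (298 to 642 bases).

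**Figure D3:**
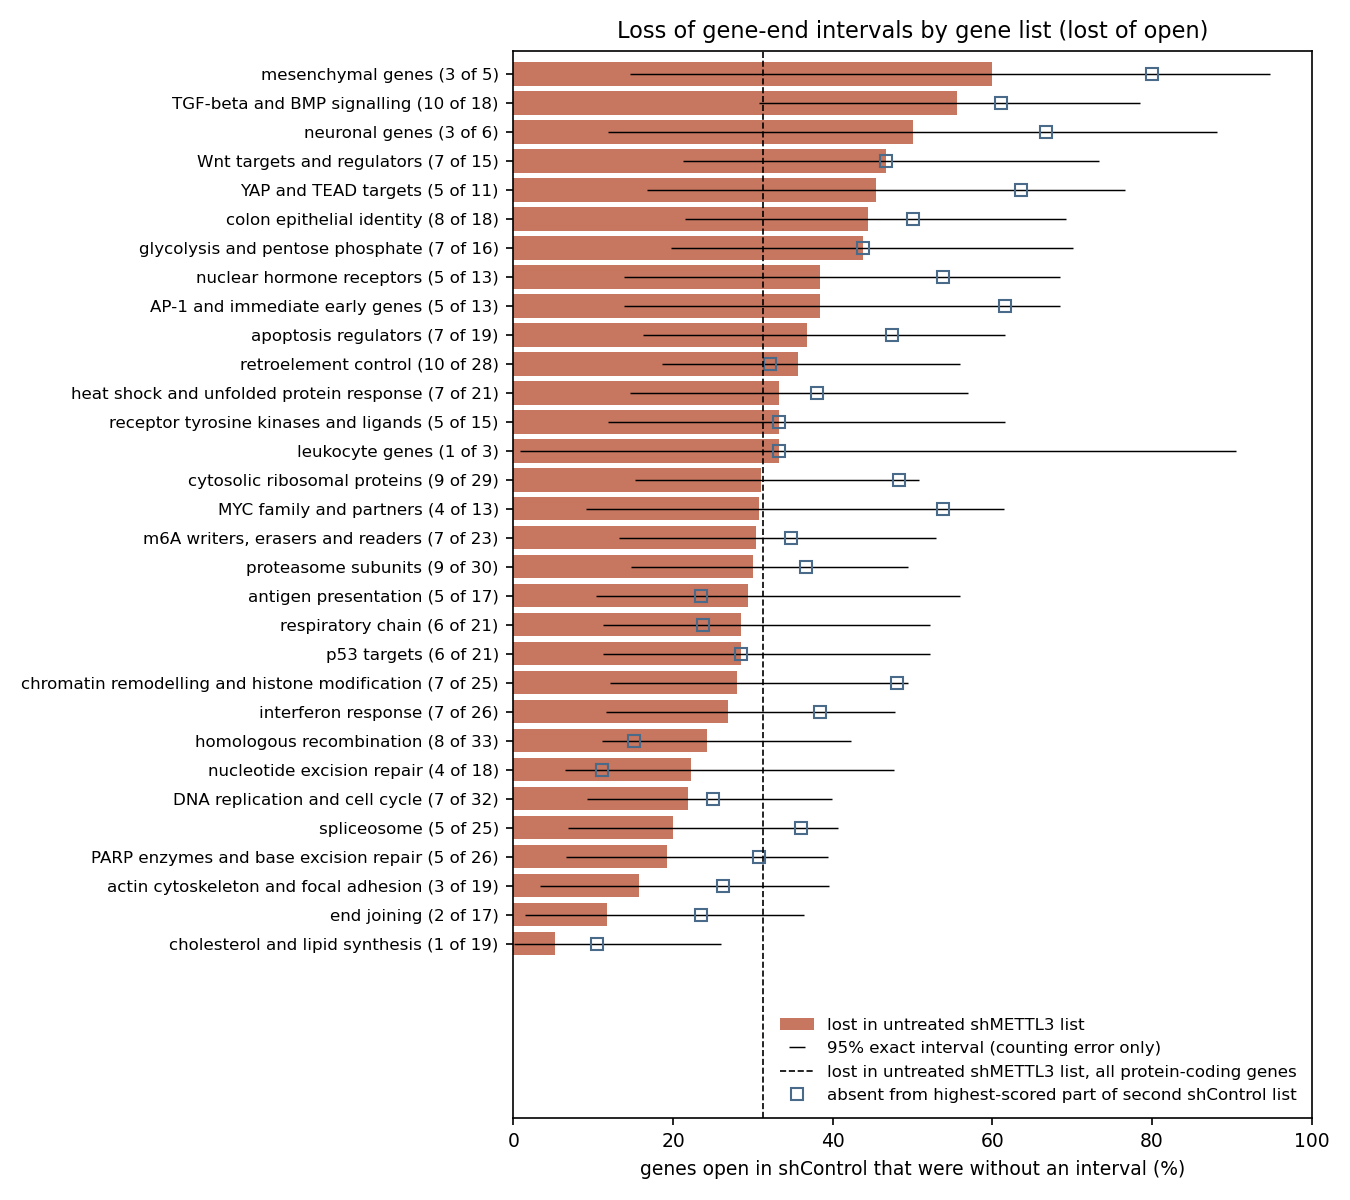
Share of genes open in shControl that were lost with shMETTL3 (bars, percent) in 31 gene lists, with 95% exact intervals, the share over all protein-coding genes (dashed line) and the share absent from the highest-scored part of the second shControl list (squares). Cholesterol and lipid synthesis had 1 of 19 members lost and TGF-beta and BMP signalling 10 of 18.

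TGF-beta and BMP signalling lost 10 of 18 open members (55.6%, 30.8 to 78.5, an interval that takes in 31.2%), and 11 were absent from the highest-scored part of the second shControl list. With the second shControl list as base 15 of 23 were lost (65.2%, 42.7 to 83.6, an interval above 36.2%). Among the 15, ACVR1B, SMAD7, ID1, ID2, ID3 and TGIF1 had no base in merged shControl either. The 10 lost from merged shControl were the ligands TGFB1, BMP2 and BMP4, the receptors TGFBR1, ACVR2B and BMPR1A, and the signal transducers SMAD3, SMAD4, SMAD5 and the inhibitory SMAD6. SMAD4, the shared partner of the receptor-activated SMADs, had 0 bases with shMETTL3, against 1609 in the merged and 202 in the second shControl list. SMAD5 had 0 with shMETTL3, against 1231 and 195, and BMPR1A 0, against 1076 and 193. SMAD3 had 0 with shMETTL3, against 976 and 563. The receptors TGFBR2 (491 with shMETTL3, 1395 in merged shControl) and BMPR2 (515 and 1119) and the transducer SMAD2 (970 and 1850) were kept with fewer bases. SKI, a repressor of the pathway, had 416 bases with shMETTL3 and 406 in merged shControl. ACVR2B had no base in the second shControl list, and ACVR2B alone of the 10 had none in shMETTL3 with olaparib.

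Cholesterol and lipid synthesis lost 1 of 19 open members (5.26%, 0.133 to 26.0, an interval below 31.2%), and 2 were absent from the highest-scored part of the second shControl list. With the second shControl list as base 4 of 22 were lost (18.2%, 5.19 to 40.3), an interval that takes in the 36.2% of all genes, and with windows of 2500 bp 2 of 20 (10%, 1.23 to 31.7), one that takes in the 31.5% of all genes there. The share thus lay apart from that of all genes only with the merged list and windows of 1000 bp, among these 3 settings. The lost gene was FDFT1, the squalene synthase gene, with 0 bases with shMETTL3, against 635 in the merged and 238 in the second shControl list. HMGCS1 had 913 bases with shMETTL3, against 950 in merged shControl. DHCR7, which acts in the last steps, had 845 against 814, and SREBF2, the transcription factor of the pathway, 700 against 863. SCAP, its escort protein gene, was kept by 7 bases, against 214.

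Each of 4 DNA repair lists had a lower share of lost members than the 31.2% of all genes, and every exact interval of these shares took in 31.2%. End joining lost 2 of 17 (11.8%), LIG4, the ligase, with 0 bases against 644, and SHLD1, a shieldin subunit, with 0 against 642; 4 were absent from the cut second shControl list. Homologous recombination lost 8 of 33 (24.2%), against 5 absent from that cut, among them RAD54L (0 with shMETTL3, 1871 in merged shControl), BARD1 (0 and 1049), GEN1 (0 and 1091) and TOPBP1 (0 and 1142, with none in the second shControl list). PALB2 was kept with 649 and 697 bases. PARP enzymes and base excision repair lost 5 of 26 (19.2%), against 8 absent from the cut. They included the tankyrase TNKS2 (0 with shMETTL3, 1286 in merged shControl), the ligase LIG3 (0 and 1352), APTX (0 and 1381) and the glycosylase NEIL3 (0 and 614). APTX shares its interval with DNAJA1. MPG, the alkyladenine glycosylase gene, was gained with 698 bases with shMETTL3, against 0 in merged and 394 in second shControl. Nucleotide excision repair lost 4 of 18 (22.2%), RAD23B, ERCC3 and GTF2H5 among them, against 2 absent from the cut.

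Among m6A writers, erasers and readers 7 of 23 were lost (30.4%), against 8 absent from the cut second shControl list. METTL14, the partner of METTL3, was kept with 444 bases with shMETTL3 and 542 with merged shControl, and the eraser FTO with 661 and 734. Lost members included PCIF1, which methylates the cap-adjacent adenosine (0 with shMETTL3, 1767 in merged and 260 in second shControl), TRMT112, an activator of several methyltransferases (0, 1308 and 545), and the readers IGF2BP2 (0, 1343 and 643) and HNRNPA2B1 (0, 1397 and 836). Retroelement control lost 10 of 28 (35.7%), against 9 absent from the cut, with the helicase MOV10 (0 with shMETTL3, 1711 in merged shControl), the heterochromatin protein CBX3 (0 and 1429), the methylcytosine oxidase TET3 (0 and 1147) and the maintenance methyltransferase DNMT1 (0 and 943). TET2 had 492 bases with shMETTL3 and 462 with merged shControl, and the histone methyltransferase SUV39H1 467 and 429. Chromatin remodelling and histone modification lost 7 of 25 (28.0%), against 12 absent from the cut. Of these SMARCA4, the BRG1 ATPase, and EED, a Polycomb subunit, had 1272 and 1447 bases in merged shControl and none in the second shControl list.

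Wnt targets and regulators lost 7 of 15 (46.7%, 21.3 to 73.4), as many as were absent from the cut second shControl list. They included LGR5, the intestinal stem cell receptor (0 with shMETTL3, 1395 in merged and 605 in second shControl), SP5, a Wnt target factor (0, 1537 and 290), the co-receptor LRP6 (0, 1433 and 743) and CTNNB1, beta-catenin (0, 856 and 670). APC, the scaffold of the destruction complex, was kept with 646 bases with shMETTL3 and 830 in merged shControl, and TCF7L2, the transcription factor of the pathway, with 260 and 1103. Colon epithelial identity lost 8 of 18 (44.4%), against 9 absent from the cut, with HNF4G (0 with shMETTL3, 1250 in merged shControl), KLF4 (0 and 815) and GATA6 (0 and 614). FOXA1 was kept with 317 and 517 bases and KRT19 with 153 and 153. YAP and TEAD targets lost 5 of 11, AP-1 and immediate early genes 5 of 13 and mesenchymal genes 3 of 5. In the cut second shControl list 7, 8 and 4 of these were absent. In the AP-1 list 13 members were open in merged shControl and 22 in the second shControl list. With the second list as base the AP-1 list lost 14 of 22 (63.6%, 40.7 to 82.8, above 36.2%), against 5 of 13 (38.5%) from merged shControl. FOSB, JUNB and KLF10 had none in merged shControl or with shMETTL3, but 787, 889 and 803 bases in the second shControl list.

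For growth, metabolism and stress genes, glycolysis and the pentose phosphate pathway lost 7 of 16 (43.8%), as many as were absent from the cut second shControl list, with PKM, ENO1 and TKT, and gained TPI1 (334 with shMETTL3, 0 in merged and 642 in second shControl). Actin cytoskeleton and focal adhesion lost 3 of 19 (15.8%), ITGB4, ROCK2 and MYL12A, against 5 absent from the cut. With the second shControl list as base the same list lost 8 of 24 (33.3%, 15.6 to 55.3). The spliceosome lost 5 of 25 (20.0%), against 9 absent from the cut. DNA replication and the cell cycle lost 7 of 32 (21.9%), CDKN2A, PLK1, CCNA2 and AURKB among them, against 8 absent from the cut. Cytosolic ribosomal proteins lost 9 of 29, against 14 absent from the cut, proteasome subunits 9 of 30 against 11, the respiratory chain 6 of 21 against 5, and heat shock and the unfolded protein response 7 of 21 against 8. The p53 targets lost 6 of 21, as many as were absent from the cut, the interferon response 7 of 26 against 10, antigen presentation 5 of 17 against 4, and apoptosis regulators 7 of 19 against 9. The MYC family and partners lost 4 of 13 against 7, nuclear hormone receptors 5 of 13 against 7, and receptor tyrosine kinases and ligands 5 of 15, as many as in the cut. These 11 shares ran from 26.9 to 38.5%. In antigen presentation B2M, the light chain of MHC class I, had 0 bases with shMETTL3, against 811 in merged and 462 in second shControl, while CD274, which encodes PD-L1, was kept with 501 and 551 in merged shControl. EGFR was kept with 471 and 1027 bases and its ligand gene AREG lost (0 and 901). MYC was kept with 227 bases with shMETTL3 and 290 in merged shControl, beside 1098 in the second shControl list. Leukocyte genes lost 1 of 3 and neuronal genes 3 of 6, against 1 and 4 absent from the cut.

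The labelled cell type was checked with marker genes. Of 13 colon epithelial markers 6 had a gene-end interval with shMETTL3, against 8 in the merged and 9 in the second shControl list. CDX2, HNF4A, KRT8, EPCAM, LGALS4 and GPA33 were open in all 3, VIL1 (0 with shMETTL3, 503 in merged shControl) and CEACAM5 (0 and 20) were lost, and CDX1, KRT20 and CDH17 had no interval in any of them. Of 8 mesenchymal markers 1, 2 and 2 were open in the same order of lists, of 6 leukocyte markers 0, 1 and 2, and of 5 neuronal markers 1, 2 and 2. The leukocyte gene PTPRC had no base in any of the 3 lists.

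The lost intervals, 52.5% of all shControl intervals, were also counted by gene. Whether more were lost around a gene than this share gives was not tested. Intervals were assigned to the nearest gene end within 50000 bp. Of 13024 genes with at least 1 shControl interval, 8076 had fewer with shMETTL3, 4839 as many and 109 more. ADGRF1, an adhesion G protein-coupled receptor gene, had 2 intervals with shMETTL3, against 10 in merged and 9 in second shControl. NCOA7, a nuclear receptor coactivator gene, had 2, against 9 and 10, and NFIA, a transcription factor gene, 2, against 9 and 12. THRB, a thyroid hormone receptor gene, had 1, against 7 and 9, and its start was lost (0 bases with shMETTL3, 1258 in merged shControl). TRA2B, a splicing regulator gene, had 2, against 9 and 5. UBE3D, IL20RA, PRAG1, SLC39A11 and LIMCH1 had 1 to 5 intervals with shMETTL3, against 7 to 11 in merged shControl. ADGRF1 alone fell by 8 intervals, 4 genes fell by 7, and 24 genes were tied at a fall by 6, of which the 5 with the largest fall in assigned bases are named here. Increases reached 2 intervals, in 3 genes, and 308 genes had 1 more. TSC2, a brake on mTOR, had 2 with shMETTL3, against 0 in merged and 3 in second shControl, and LGALS3BP and SIPA1L3 also had 2 more. The ends of all 3 were covered in both lists and less with shMETTL3. TSC2 had 669 bases there, against 1335 in merged shControl, LGALS3BP 383 against 891 and SIPA1L3 386 against 745. MAP2K1, the MEK1 gene, was covered over 1514 bases at its ends with shMETTL3, against 876 in merged and 572 in second shControl. RAB4B, USP5, SEPTIN2, YRDC, FAM76B and LACC1 had 1 interval with shMETTL3 and 0 in merged shControl assigned to them, and their ends were covered in both.

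Chromosome X kept fewer intervals than any autosome. On X 32.9% were kept (230 of 699, 29.4 to 36.5), against 47.8% on the autosomes together (15660 of 32735), where single chromosomes ran from 42.6% on chromosome 4 to 54.8% on chromosome 7 (52.6 to 57.0, n = 2010). From their widths the X intervals would have had 47.8% kept and from their scores 41.4%. Their median score was 9.47, against 10.5 on the autosomes. The X share was below the autosomal one at gene ends (43.1 against 66.7%), in gene bodies (22.9 against 41.1%) and between genes (30.0 against 40.5%), and within each of 3 width classes. Chromosome 7 was above it in the same classes, with 78.3% at gene ends, 49.4% in gene bodies and 46.9% between genes. HCFC1, PLXNA3 and ZXDB are X-linked genes among those lost.

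**Figure D4:**
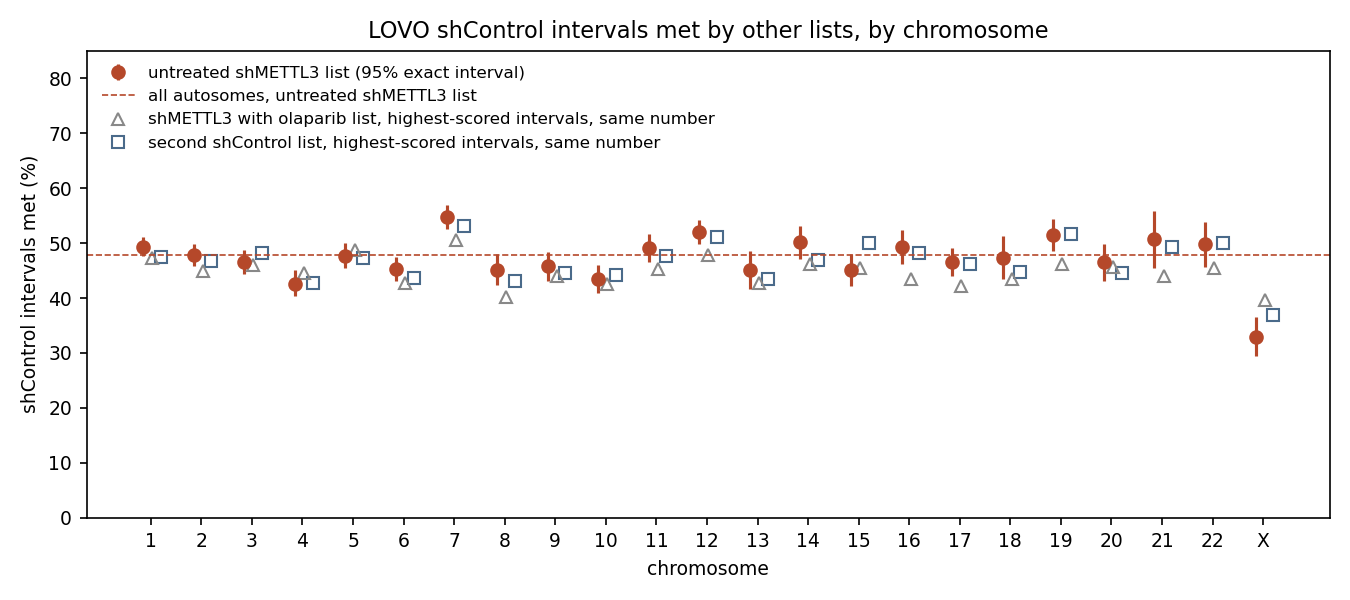
Share of the merged shControl intervals on each chromosome that were met in the shMETTL3 list (filled points with 95% exact intervals) and in equally long, highest-scored parts of the shMETTL3 with olaparib list (triangles) and the second shControl list (squares). Chromosome X was lowest and chromosome 7 highest in all 3.

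The full other lists showed no such gap for X: it was met in 91.3% by shMETTL3 with olaparib, 77.8% by shControl with olaparib and 89.0% by the second shControl list, against 91.4, 77.0 and 87.7% on the autosomes. Cut to their highest-scored 16417 intervals, however, each of them met X less often. The difference from the autosomes was -14.9 points in untreated shMETTL3, -5.72 in shMETTL3 with olaparib, -6.88 in shControl with olaparib and -10.2 in the second shControl list. For chromosome 7 it was 6.99, 5.15, 5.08 and 5.99 points. In windows of 10 Mb with at least 50 shControl intervals, the kept share ran from 22.4 to 74.0% over 259 windows, from 25.5 to 37.0% in the 4 on X and from 45.0 to 74.0% in the 16 on chromosome 7.

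Most lost intervals were present in the other LOVO lists. In the list of shMETTL3 with olaparib 84.1% of lost intervals were met (83.5 to 84.6), against 99.6% of kept ones, and in shControl with olaparib 59.8% against 96.0%. Of the 17572 lost intervals 9294 (52.9%) were in every other LOVO list and 1475 (8.39%) in none. The gained intervals were met in 89.3% by shMETTL3 with olaparib and in 52.9% by shControl with olaparib. In RKO, a second colon cancer line, lost intervals were met less often than kept ones in each list: 5.96 against 28.0% in untreated shMETTL3 and 33.6 against 55.8% in merged shControl. The olaparib lists are of the scored form, which mixes drug with form in these shares. The lists also differ in length: shMETTL3 with olaparib held 51462 intervals, the second shControl list 41431 and shControl with olaparib 32192. The shares of lost and of gained intervals met in them fell in that order. Length and hairpin cannot be told apart in these shares.

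**Figure D5:**
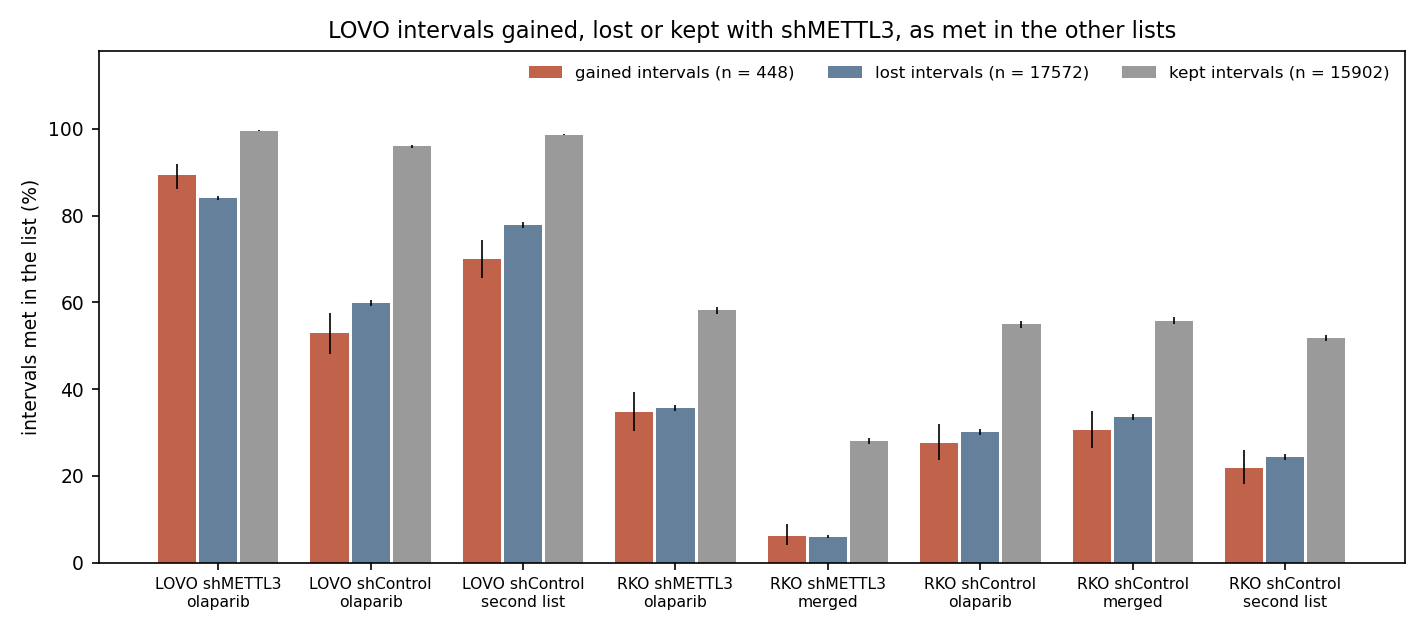
Share of the LOVO intervals gained, lost or kept with shMETTL3 that were met in the 3 other LOVO lists and the 5 RKO lists (vertical axis, percent; bars with 95% exact intervals). Lost intervals were met in 84.1% by the list of shMETTL3 with olaparib and in 77.9% by the second shControl list.

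The state of an interval was close to whether it stood in the upper part of another list. Of the 15690 intervals met by the highest-scored 16417 intervals of the second shControl list, 75.6% were kept with shMETTL3, and of the 17784 others 22.7%. The shMETTL3 list and that cut list gave 76.5% of intervals the same state. For the same cut of shMETTL3 with olaparib it was 75.1% and of shControl with olaparib 78.9%, and the cut second shControl list and cut shControl with olaparib gave 81.2% of intervals the same state.

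A small set was present in the 3 shControl lists of LOVO and absent from both shMETTL3 lists. Of 24881 intervals present in the 3 shControl lists, 9705 were lost with shMETTL3, and 411 of these (1.65% of 24881) were absent from shMETTL3 with olaparib as well. They had a median width of 447 bp and a median score of 6.95, below the 8.49 of all lost intervals with a score, and 27 of them (6.57%) lay at gene ends, 191 in gene bodies and 193 between genes. The widest lay at chr2:226466225-226467669, between genes 263642 bp from an end of IRS1 (1445 bp), and at chr15:70853573-70854829, over the start of LARP6 printed above and the neighbouring LRRC49 (1257 bp). Another covered the start of SHC4, an adaptor gene of receptor signalling (chr15:48962995-48964235, 1241 bp). By gene, 9640 had an end interval in the 3 shControl lists, and 32 of these had none in either shMETTL3 list. Some of the 32 share an interval. LARP6 had 0 bases in both shMETTL3 lists, against 1257 in merged shControl, 419 in second shControl and 196 in shControl with olaparib, SHC4 0, against 1241, 327 and 344, and the shared interval of ITPRIP and CFAP58 0, against 1056, 723 and 556. Others were ADRA2B, an adrenergic receptor gene (784, 220 and 542), DOHH, which completes hypusine (777, 362 and 511), EXOSC9, an RNA exosome subunit gene (665, 199 and 183), MED9, of the Mediator complex (478, 137 and 142), and HRK, a pro-apoptotic gene of the BCL2 family (247, 230 and 204).

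In the other direction, 107 gained intervals were in none of the 3 shControl lists, and 74 of these were also in shMETTL3 with olaparib. Among the widest were intervals in the bodies of MACROH2A1, a histone variant gene (chr5:135340758-135341469, 712 bp), and FABP7, a fatty acid binding protein gene (chr6:122771077-122771545, 469 bp), and between genes near PHLDA1 (chr12:75961335-75961822, 488 bp). Of 7155 genes with an end interval in both shMETTL3 lists, only 5 had one in none of the 3 shControl lists. DECR2, a peroxisomal dienoyl-CoA reductase gene, had 558 bases in untreated shMETTL3 and 367 in shMETTL3 with olaparib. EOMES, a T-box factor gene, had 424 and 140, ISM2 337 and 115, the mitochondrial nucleoside diphosphate kinase gene NME4 158 and 35, and GADD45B, a stress-induced gene, 97 and 724. Each of the 5 had 0 bases in the 3 shControl lists. These 5 and the 32 are descriptions of single lists, and how many such genes a further pair of lists would share was not tested.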

How the data were processed

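ATAC-seq libraries of LOVO cells were made with a commercial transposase kit, per the labels' protocols. Per the submitters' processing notes, the build was hg38, and MACS2 2.2.7.1, DiffBind 3.0.15, Bowtie2 2.4.2 and Trim Galore 0.6.6 are named, in roles that the notes do not give. Shifting, filtering and pooling of reads are not given in the sources used here. For the whole series the authors deposited 10 lists of intervals, 5 of them for LOVO, whose values used here are start and end coordinates. In the deposited scored lists each interval also carries a score, whose meaning is not stated. It was used only to rank intervals within a list. The depth behind a list is unknown.

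Intervals were compared by an overlap of at least 1 bp with Python 3.11.15, numpy 2.4.6 and pandas 2.3.3. Shares have 95% exact (Clopper-Pearson) intervals from scipy 1.17.1, which cover counting error only. Gene ends come from RefSeq on GRCh38, without strand or exons, and starts and sequences from the RefSeq promoter table, which holds 15724 of the genes. A share expected from width or score is the mean kept share of the 10 classes, weighted by the classes of the intervals concerned. The overlap code was tested on simulated data.

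The members, gene lists and tests were chosen with earlier results of these data known. All 803 entries of the 31 gene lists matched a symbol. Named genes are METTL3, every gained member of a list, up to 4 lost members with the most and up to 4 kept members with the fewest shControl bases, the first 15 lost and 15 gained genes by covered bases, and the 10 largest drops and rises in assigned intervals. The widest or highest-scored lost intervals and the widest gained ones are named likewise. A few genes falling under it were left out and are not reported here. Genes and intervals named beyond this rule, among them the further TGF-beta, cholesterol and AP-1 genes and those that follow the hairpin in all LOVO lists, were chosen after their values were seen. Exons, introns, repeats and the sequences of the intervals were not analysed here, since no genome was used.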

Additional observations from a re-analysis of the deposited data

Results flagged for a closer look

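The ratio of interval number between the hairpins lay on opposite sides of 1 without and with the drug. The shMETTL3 list held 0.4904 times as many intervals as the shControl list without olaparib, where both lists are merged ones. With olaparib the shMETTL3 list held 1.599 times as many as the shControl list, where both are scored ones. This difference was not tested, since each group has 1 list, and drug and form of list cannot be told apart in it.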

How the results depend on the processing

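The share of shControl intervals kept with shMETTL3 (47.51%) was 37.89% when an overlap of 50% of the interval was required, 46.72% at 25%, 44.95% for intervals of at least 300 bp, 40.25% with the second shControl list as base, 66.76% for its intervals scored at or above the median, and 67.8% for the widest shControl intervals, as many as the shMETTL3 list holds. The gained share (2.729%) was 2.277% at 300 bp, 2.156% with the second list as base and 31.78% against the widest shControl intervals. The share absent between the full shControl lists (12.24%) was 38.64% at 50%, 14.83% at 25% and 38.98% at 300 bp. Each was below the loss with shMETTL3 at the same setting. At 1 bp this did not hold for the second shControl list cut to 16417 intervals. Gained genes (79) were 34 with the second list as base and 467 against the widest shControl intervals, where cutting the control list adds gains by construction. Elsewhere the cause was not tested. Lost genes (3225) ran from 2426 to 4046 over the alternatives, and the X gap (-14.93 points) reached -22.46 for the widest shControl intervals, an alternative added after the data were seen. With the second list as base, 3 of the 31 gene lists moved by over 1.5 times: cholesterol and lipid synthesis was 18.18% in place of 5.263%, actin cytoskeleton and focal adhesion 33.33% in place of 15.79%, and AP-1 and immediate early genes 63.64% in place of 38.46%. With windows of 2500 bp cholesterol and lipid synthesis was 10% and actin cytoskeleton and focal adhesion 10.53%. The depth behind a list is unknown and limits every absence. No paired analysis was possible because the lists are pooled per group and hold no values of single samples.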

Other observations

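Hairpins of annotated microRNAs gave further loci. Of 1562 hairpins, 174 had a shControl interval within 1000 bp, of which 76 were lost with shMETTL3 (43.7%, 36.2 to 51.4) and 98 kept, beside 31.2% of genes and 52.5% of all intervals lost. Of the 1388 other hairpins 2 gained an interval (0.144%), beside 0.813% of genes. Hairpins can share an interval, as MIR550A1 and MIR550B1 at the same place do. The exact interval treats hairpins as independent and so is too narrow. MIRLET7I, of the let-7 family, was kept with 946 bases with shMETTL3, against 1104 in merged shControl, and MIR210, which is induced by hypoxia, with 610 against 833. MIR132 had 0 bases with shMETTL3, against 929 in merged and 237 in second shControl.

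With 52.5% of intervals lost, the longest uninterrupted run of lost intervals held 19 and that of kept intervals 18. Whether lost intervals follow each other more often than this share gives was not tested. The run of 19 lay over ADGRL3, EPHA5 and TECRL (chr4:61837981-67035746), of which 16 were met in shMETTL3 with olaparib, 9 in shControl with olaparib and 13 in the second shControl list. Another held 13 and overlapped THRB, reaching past an end of the gene (chr3:24237902-24514593). A run of 12 lay over the interleukin-1 family genes IL1F10, IL36A, IL36B, IL36G, IL36RN and IL37 (chr2:112846112-113078604).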
